A study of Mus musculus with 12 samples.

Results

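B cells at rest and naive CD4+ T cells share an organ, a small size and much of their signalling machinery, and RNA from both was sequenced from C57BL/6J spleens. The comparison here covers every expressed gene except the antigen receptors themselves. Of 41128 genes in the deposited table, 12520 reached an adjusted TPM of 1 in 3 or more of the 12 libraries. Adjusted TPM is a share of transcripts corrected for gene length and then rescaled between libraries by the authors. Antigen receptor segments, 286 of these genes, were left out, so 12234 genes were compared. The libraries form 4 groups of 3, 1 for each sex of CD43- B cells and of CD4+CD62L+ T cells. All groups come from untreated mice of the C57BL/6J strain at 6 to 8 weeks of age. T cells were depleted of other cells on magnetic beads and then sorted as CD62L high, CD44 low and CD25 negative, while the B cells are labelled by the absence of CD43, so cell type and purification cannot be told apart. The series describes pooled mice, and the spread between libraries is therefore a spread between pools.

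B cells recognise antigen with surface immunoglobulin, take it up, and present peptides from it on MHC class II molecules to CD4+ T cells. Naive CD4+ T cells read these peptides with the T cell receptor and the CD3 chains, and answer with cytokines and surface ligands such as CD40 ligand. Both are small, mostly non-dividing cells that circulate through the spleen, and both signal through related kinases, lipases and adaptors. In the text below a level is the median of the 6 libraries of a cell type in adjusted TPM, with the lowest and the highest library in parentheses. A log2 fold change is B minus T on log2(adjusted TPM + 1) with its standard error (SE), and is smaller than the ratio of the levels for genes near 0.

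The labels were checked against marker genes. The 5 B cell markers added up to 2610 to 2972 adjusted TPM in B cell libraries and up to 5.34 in T cell libraries, and the 5 T cell markers to 1017 to 1194 in T cells and 9.76 to 14.1 in B cells. Both T cell libraries numbered 6 stood apart in 3 regulatory T cell markers, Foxp3, Il2ra and Ikzf2, whose sum was 20.97 in the female and 17.2 in the male library and 1.75 to 3.14 in the other 4. Female T cell library 6 also had the highest sum of B cell markers among the T cells. Markers of several other cells were higher in B cell libraries: platelet markers added up to 4.05 to 16.9 against 0.343 to 0.612, monocyte and macrophage markers to 8.98 to 13.2 against 1.07 to 4.58, and dendritic cell markers to 4.10 to 11.01 against 0.154 to 0.757. Erythroid markers overlapped, at 3.82 to 238 in B cells and 3.16 to 55.5 in T cells. The natural killer cell markers added up to 12.5 to 18.2 in T cells and 1.52 to 3.20 in B cells. In T cells this sum was mostly the perforin gene Prf1, at 11.5 to 17.6. The other 4 stayed under 1 in every library. Of these Ncr1 and Klrb1c were higher in B cells, at 0.0264 to 0.584 and 0.0950 to 0.248 against at most 0.0137 and 0.0415, and Gzma and Klrk1 overlapped. Whether such cells contributed to any difference below was not tested. In bulk samples a smaller number of cells of a type and less RNA per cell cannot be told apart. The sum of adjusted TPM ran from 561020 to 1453940 per library, 38.5% to 68.0% of it from protein-coding genes, and 10956 to 11279 of the compared genes reached 1 in a library.

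Most genes were expressed in both cell types at levels that differed by less than 2-fold. At least a 2-fold difference with an adjusted p under 0.05 was found for 1303 genes higher in B cells (10.7% of those compared) and 1119 higher in T cells (9.15%). Together these are 2422 genes, 19.8% of those compared. For 2401 of them the 6 B cell libraries did not overlap the 6 T cell libraries, against 6468 of all 12234 compared genes (52.9%). A 2-fold call and a lack of overlap are not independent. Without a minimum fold, 3745 genes were higher in B cells (30.6%) and 5103 in T cells (41.7%), 8848 in all (72.3%). Differences of at least 4-fold were called for 536 and 353 genes, and of at least 16-fold for 152 and 85. Taken as separate comparisons, females and males each gave the 2-fold call for 1226 of the B cell genes (94.1%) and 1005 of the T cell genes (89.8%). No gene passed the adjusted threshold for a difference between the sexes in the B against T effect in limma, with a smallest adjusted p of 0.0855 and 268 genes at an unadjusted p under 0.05. Without the T cell libraries numbered 6 the 2-fold counts were 1320 and 1193, of which 1279 and 1089 were shared with the counts above.

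**Figure D1:**
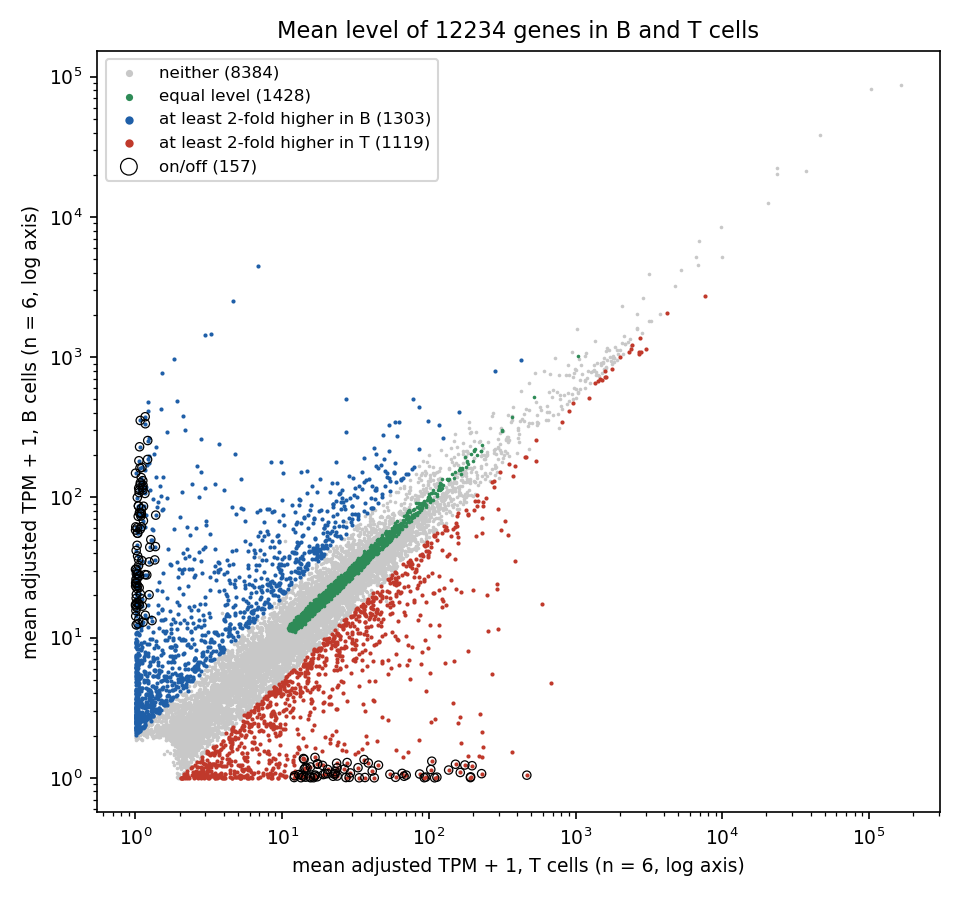
Mean adjusted TPM + 1 of each compared gene in 6 T cell libraries (horizontal, log axis) and 6 B cell libraries (vertical, log axis). Blue and red points are the 1303 and 1119 genes at least 2-fold higher in B and in T cells, green points the 1428 genes of equal level along the diagonal, and circles the 157 on/off genes at the edges.

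The balance of the directions depended on how libraries were scaled to each other. The median log2 fold change of all compared genes was -0.09 on the deposited scale, 0.25 after rescaling every library to the same total, 0.16 after rescaling to the same protein-coding total and 0.01 after median-ratio scaling. Of the 2-fold calls 53.8% were higher in B cells on the deposited scale and 71.0%, 67.2% and 59.5% on these 3 others. Class medians are therefore given relative to the median of all compared genes. Of 148 genes named here with a 2-fold call, 136 kept it after rescaling to the same total, 140 after rescaling to the same coding total and 144 after median-ratio scaling. Those that dropped below 2-fold under at least 1 of these were all higher in T cells by small margins, namely Dusp10, Eef1b2, Irf7, Ldha, Mpzl3, Nlrc5, Pik3cd, Psmg1, Rasgrp1, Rps24, S1pr1 and Tmsb10. Of 32 genes named here as of equal level, 0 kept the call after either rescaling to a total and 22 did after median-ratio scaling, 24 with the library number as a block and 21 to 27 with 1 library left out. Genes were grouped into 61 functional lists that hold 2430 of the compared genes. A member that was low in one cell type could enter the comparison through the other alone, so counts below describe the members past the low filter and are read beside the background shares of 10.7%, 9.15% and, for equal level, 11.7%.

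**Figure D2:**
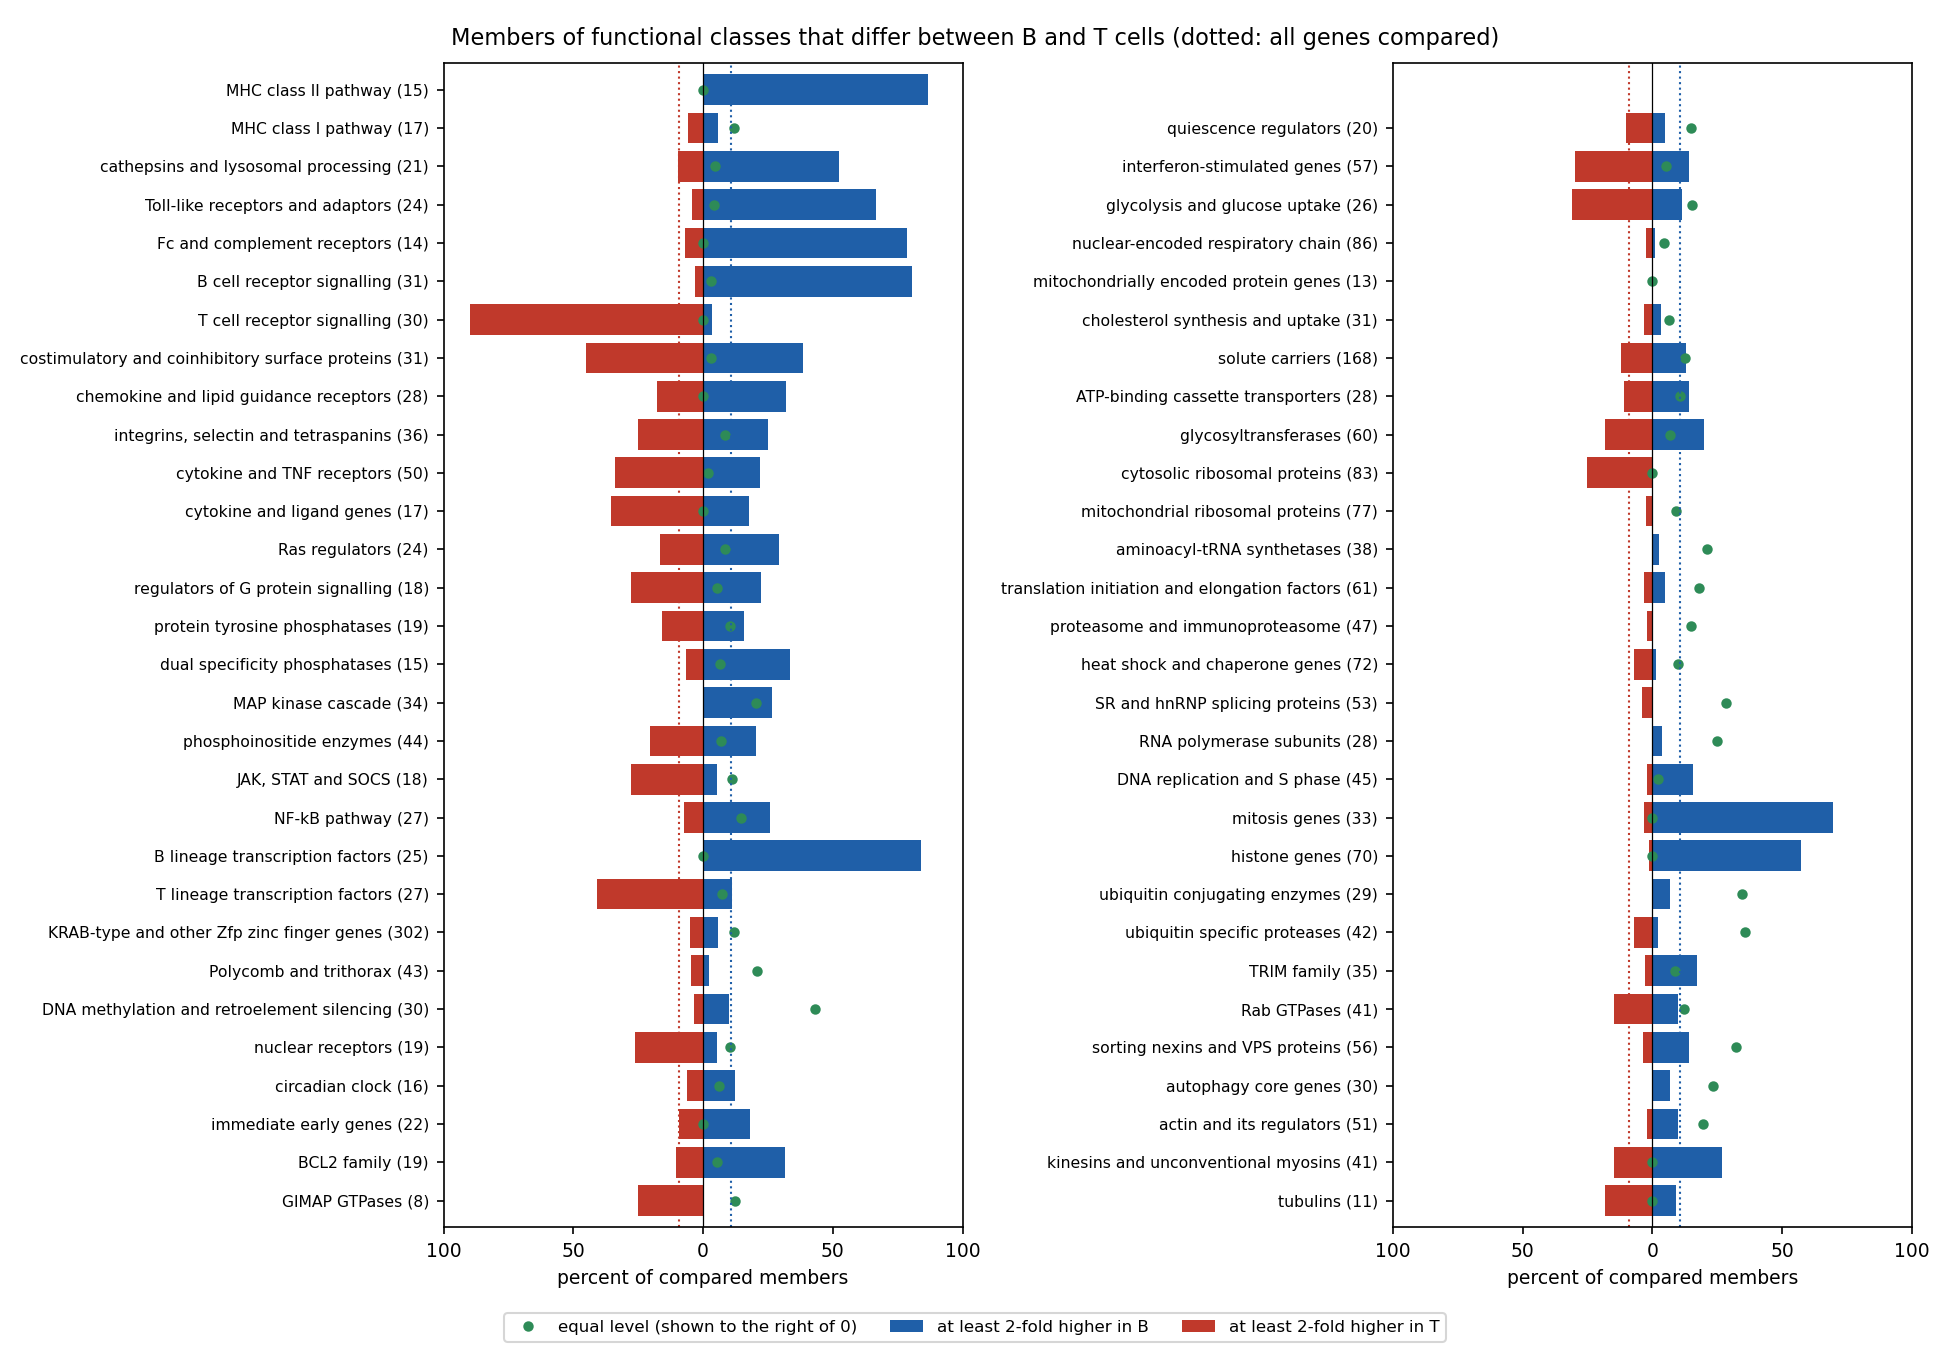
Share of compared members of functional classes (number compared in parentheses) that were at least 2-fold higher in B cells (blue, to the right), at least 2-fold higher in T cells (red, to the left) or of equal level (green points, read on the right of 0), in percent. Dotted lines mark the shares over all compared genes, 10.7% and 9.15%.

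Antigen presentation lay almost wholly with B cells on the class II side and was shared on the class I side. Of 15 genes of the MHC class II pathway 13 were at least 2-fold higher in B cells and none in T cells under any of the scalings, with a median of 6.34 relative to all compared genes. Their share of protein-coding signal was 2.37% to 3.18% in B cells and 0.0125% to 0.0264% in T cells. Cd74, the invariant chain that guards the peptide groove, had a level of 4466 (3849 to 5189) in B and 2.79 (0.963 to 16.9) in T cells, with a log2 fold change of 9.79 ± 0.43. The class II alpha chain H2-Aa was at 2452 (2201 to 2911) in B and 1.32 (0.17 to 12.3) in T cells. Its partner H2-Ab1 was at 1439 (1222 to 1619.8) in B and 0.744 (0.0948 to 6.18) in T cells, and H2-Eb1 at 1436 (1253 to 1686) in B and 0.554 (0.219 to 7.84) in T cells. In each of the 4 genes the highest T cell value came from female library 6, and even that value lay far below the lowest B cell library. H2-Ob, which restrains peptide exchange, kept a clear T cell level, at 504 (449 to 531) in B and 26.6 (20.6 to 33.2) in T cells. H2-DMa, a part of the peptide exchange factor, was at 146 (128 to 169) in B and 8.97 (8.14 to 10.9) in T cells. The 2 members without a 2-fold difference were subunits of the RFX complex that drives class II promoters: Rfxank was at 7.2 (6.48 to 8.12) in B and 7.13 (6.51 to 8.11) in T cells, with overlapping ranges, and Rfxap at 8.16 (6.6 to 8.95) in B and 12.8 (9.92 to 14.3) in T cells, somewhat higher in T cells (log2 fold change -0.59 ± 0.09).

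By contrast, 17 MHC class I pathway genes gave 1 member at least 2-fold higher in each cell type. B2m, the light chain of class I molecules, was at 1490.2 (1263 to 2008) in B and 2723 (2013 to 2942) in T cells, with a log2 fold change of -0.74 ± 0.16 that passed p alone (adjusted p = 0.00098) without reaching 2-fold, and no longer passed it after rescaling to the same total. Nlrc5, the transactivator of class I genes, was higher in T cells at 30.7 (23.8 to 36.7) in B and 75.3 (62.2 to 84.7) in T cells, and the nonclassical gene H2-Q6 higher in B cells at 164 (101 to 211) in B and 41.3 (29 to 61.8) in T cells. The H2-Q genes are near-identical copies, so reads may have been split between them. H2-T23, which encodes the Qa-1 heavy chain, was of equal level, at 213 (191 to 237) in B and 226 (190.1 to 258) in T cells.

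The machinery that prepares and senses foreign material leaned towards B cells. Among 21 cathepsin and lysosomal processing genes (28 in the table) 11 were at least 2-fold higher in B cells and 2 in T cells. Ctsh, an aminopeptidase, was at 178 (170.4 to 197) in B cells against no more than 0.305 in T cells. Ctss, the protease that trims the invariant chain, was expressed in both, at 405 (348 to 460.2) in B and 157 (134 to 185) in T cells. Ifi30, which reduces disulfide bonds of proteins in lysosomes, was at 144 (126 to 177) in B and 12.2 (11 to 14) in T cells. Of the 2 members higher in T cells, the one with the larger difference was Ctsw, a cathepsin of T and natural killer cells. It was at 14 (11.3 to 15.5) in T cells against no more than 0.258 in B cells. Lamp1, a structural protein of the lysosomal membrane, was of equal level at 62.7 (53.7 to 67.6) in B and 69.1 (56.2 to 72.4) in T cells.

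Of 24 Toll-like receptors and adaptors (29 in the table) 16 were at least 2-fold higher in B cells, among them Ly86, the partner of the receptor CD180, at 166 (143 to 190.2) against at most 0.898, and Unc93b1, which carries nucleic acid-sensing receptors to endosomes, at 255 (244 to 289.9) in B and 1.5 (1.26 to 3) in T cells. Tlr9, the receptor for CpG DNA, was at 27 (21.6 to 32.1) in B cells against no more than 0.0871 in T cells. The shared signal adaptor Traf6 was of equal level, at 16.6 (15.8 to 18.2) in B and 16.1 (14.9 to 18.3) in T cells. Irf7, a transcription factor at the end of this pathway, was the only member higher in T cells by 2-fold, at 20.4 (11.3 to 25.4) in B and 42.8 (37.8 to 66.2) in T cells. Of 14 Fc and complement receptors (23 in the table) 11 were higher in B cells, led by Faim3, a receptor for immunoglobulin M, at 400.2 (371 to 465) against at most 0.851. The member higher in T cells was Fcgr3 at a low level, 1.89 (1.72 to 2.21) against 0.255 (0.16 to 0.386). The sum of monocyte and macrophage markers, in B cell libraries mostly Lyz2, was also higher in B cells, unlike Fcgr3, with the values given above. The part of such cells in these differences was not tested.

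Below the antigen receptor, some related genes of the signalling chain differed in opposite directions and others were expressed in both cell types. Of 31 B cell receptor signalling genes 25 were at least 2-fold higher in B cells and 1 was in T cells. Of 30 T cell receptor signalling genes 27 were higher in T cells and 1 was in B cells. These lists are identity genes by construction, and the comparison of interest is between relatives. A set of 11 pairs of relatives was picked for opposite directions after their values were seen, so the directions are a description. Syk, the kinase recruited to the B cell receptor, was at 261 (253 to 285) in B cells against no more than 0.79 in T cells. Its relative Zap70 was at 70 (61 to 81) in T cells against no more than 0.722 in B cells. Lyn, a Src family kinase, was at 199.5 (189 to 219) in B cells against no more than 1.08 in T cells. Its T cell counterpart Lck was not absent from B cells, at 9.9 (8.94 to 13.4) in B and 303 (260.4 to 325) in T cells.

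One step further down, the adaptor Blnk was at 124 (119 to 136) in B cells against no more than 0.243 in T cells. Its relative Lcp2 was at 0.702 (0.519 to 1.53) in B and 85.3 (83.5 to 86.3) in T cells. Of the phospholipases that release calcium, Plcg2 was at 118 (109.5 to 121) in B cells against no more than 0.359 in T cells. Plcg1 was less exclusive, at 11.3 (10.3 to 12.3) in B and 101 (89.9 to 109) in T cells. Both enzymes make diacylglycerol, which activates kinases and exchange factors of the next step. Prkcq was at 176 (165 to 181) in T cells against no more than 0.345 in B cells, while Prkcb differed by a log2 fold change of 1.93 ± 0.07, at 182 (175 to 213) in B and 46.6 (44.1 to 56.5) in T cells. Rasgrp3, which activates Ras, was at 58.8 (50.9 to 67.3) in B cells against no more than 0.184 in T cells. Rasgrp1 was present in both, at 51.2 (48.8 to 55.6) in B and 107 (97.6 to 119) in T cells, and Rasgrp2, which acts on the GTPase Rap1, had the highest level of the Ras regulators with overlapping libraries, at 143 (113 to 174) in B and 175 (128 to 185) in T cells.

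Differences within families were also found away from the antigen receptor. The catalytic lipid kinase subunits Pik3cg and Pik3cd differed by modest amounts in opposite directions, with log2 fold changes of 1.13 ± 0.08 and -1.08 ± 0.06. Arhgap24, which inactivates Rac, was at 16.1 (15 to 17.5) in B cells against no more than 0.00187 in T cells, and Arhgap29, which inactivates RhoA, at 18 (15.9 to 22.1) in T cells against no more than 0.109 in B cells. Rab30, a GTPase of the Golgi, was at 23.3 (21.3 to 26.9) in B cells against no more than 0.0218 in T cells, and Rab37, a GTPase of secretory vesicles, at 2.58 (2.05 to 2.96) in B and 26.4 (24.9 to 28.8) in T cells. The motor Myo1e was at 59.5 (52.5 to 61.3) in B cells against no more than 0.741 in T cells, against 0.943 (0.75 to 1.13) in B and 17.3 (15.1 to 24.9) in T cells for Myo6, the motor that walks towards the minus end of actin. Bmf and Bbc3, which both trigger cell death by binding BCL2 proteins, were at 18.3 (16 to 21.3) in B and 1.97 (0.879 to 2.85) in T cells and at 1.46 (1.03 to 1.81) in B and 7.59 (6.35 to 9.89) in T cells.

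**Figure D3:**
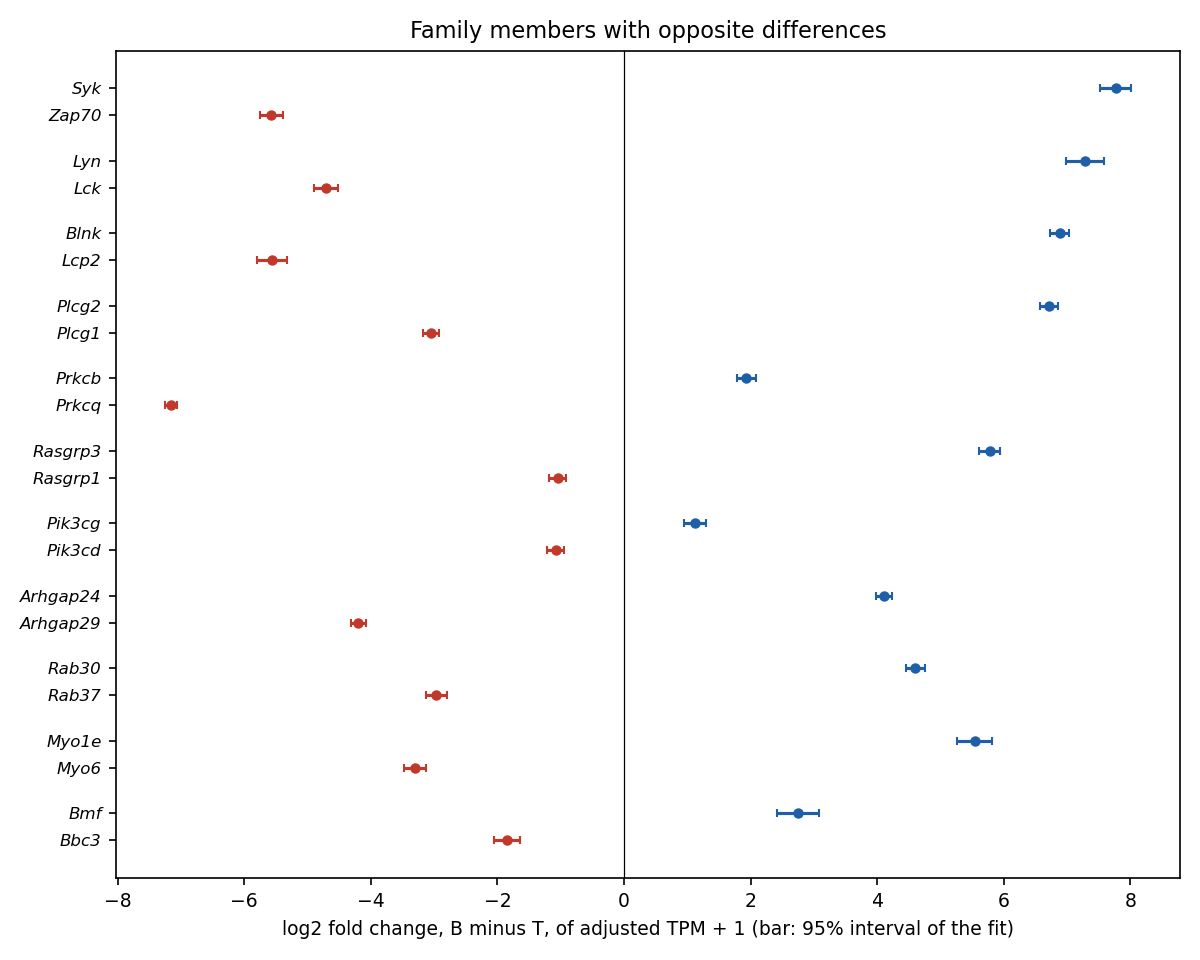
Log2 fold change, B minus T, of adjusted TPM + 1 with the 95% interval of the limma fit for 11 pairs of related genes picked after their values were seen. In each pair the first gene lies to the right of 0 and its relative to the left, from 7.77 for Syk to -7.16 for Prkcq.

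Regulators of small GTPases differed from gene to gene. Dock2, the main Rac activator of lymphocyte movement, was of equal level, at 196 (187 to 223) in B and 212 (206 to 228) in T cells, with a log2 fold change of -0.09 ± 0.06. Vav1 was also of equal level, at 72.5 (68.5 to 74.9) in B and 66.9 (60.5 to 74.3) in T cells, although its relative Vav2 was almost a B cell gene, at 41 (39.8 to 45) in B and 2.38 (1.95 to 3.51) in T cells. The 24 Ras regulators (32 in the table) had 7 members higher in B cells, led by Rasgef1b, at 68 (57.9 to 73.5) against at most 0.283, and 4 higher in T cells, of which none kept 2-fold after rescaling to the same total.

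Kinase and phosphatase lists were mixed. The MAP kinase cascade (34 of 42 genes compared) had 9 members at least 2-fold higher in B cells and none in T cells, with Map3k8, which acts below Toll-like receptors and CD40, at 33.2 (31.2 to 36.1) in B and 2.37 (1.65 to 3.91) in T cells. Of 15 dual specificity phosphatases (24 in the table) 5 were higher in B cells and 1, Dusp10, in T cells, at 12.5 (8.25 to 14.6) in B and 32.7 (28.5 to 34.4) in T cells. The 44 phosphoinositide enzymes (56 in the table) had 9 members in each direction. Among them Inpp4b, which removes a phosphate from inositol lipids, was at 19.9 (15.1 to 22.9) in B and 237 (219 to 289.9) in T cells, and Dgka, which consumes diacylglycerol, at 51.6 (49.9 to 57.9) in B and 344 (326 to 363) in T cells, both higher in T cells without overlap. Of 19 protein tyrosine phosphatases (38 in the table) 3 were higher in each cell type, and 6 in B and 1 in T cells after rescaling to the same total, with Ptprj most towards B cells at 91.7 (85.8 to 98.6) in B and 0.356 (0.302 to 0.854) in T cells and Ptpn22 most towards T cells at 15 (13.1 to 16.7) in B and 40.4 (38 to 43.1) in T cells. Ptprc, which encodes CD45 and had the highest level of them, was at 717 (638 to 788) in B and 965 (871 to 1024) in T cells, less than 2-fold apart.

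Receptors for cytokines, chemokines and neighbouring cells differed in many of their members and in both directions. Of 50 cytokine and TNF receptors (76 in the table) 11 were at least 2-fold higher in B cells and 17 in T cells. Tnfrsf13c, the receptor for the survival factor BAFF, was at 188 (164 to 201) in B cells against no more than 0.29 in T cells. Il7r, the receptor of the T cell survival cytokine IL-7, was at 218 (206 to 229) in T cells and 0.354 (0.229 to 0.828) in B cells. Tgfbr1 was of equal level, at 17.9 (16 to 19.6) in B and 17.3 (14.6 to 18.8) in T cells. Of 31 costimulatory and coinhibitory surface proteins (35 in the table) 12 were higher in B and 14 in T cells, and 13 and 12 after rescaling to the same total. Cd40, which receives T cell help, was at 57 (50.4 to 62.4) in B cells against no more than 0.00498 in T cells. Cd28, which lowers the threshold of T cell activation, was at 134 (121 to 151) in T cells against no more than 0.263 in B cells. Ly9, a receptor that binds itself on neighbouring cells, was of equal level, at 65.9 (58 to 73.5) in B and 71.7 (61.1 to 77.2) in T cells.

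Guidance receptors differed in both directions. Of 28 chemokine and lipid guidance receptors (45 in the table) 9 were called 2-fold higher in B and 5 in T cells, or 11 and 2 after rescaling to the same total. The median relative to all genes changed sign with the scaling. Cxcr5, which guides cells into follicles, was at 149 (123 to 170.0) in B and 1.14 (0.932 to 3.39) in T cells. Ccr7, which guides cells into T cell zones, was present in both, at 86 (64.3 to 98.3) in B and 237 (204 to 259) in T cells, and so was S1pr1, the exit receptor, at 131 (113 to 152) in B and 289 (230.5 to 313) in T cells. Ccr6 was at 39.3 (31.6 to 50.8) in B cells against no more than 0.053 in T cells. Among 36 integrins, selectins and tetraspanins (59 in the table) 9 were higher in each, from Cd81, a tetraspanin, at 93.5 (86.7 to 106) in B and 11.6 (10.3 to 15) in T cells, to Spn, at 6.8 (6 to 8.46) in B and 183 (168 to 201) in T cells. Spn encodes CD43, the surface protein whose absence selected the B cells, so its difference is not independent of the purification. Pecam1 was of equal level, at 90.7 (84.2 to 101) in B and 90.4 (87.5 to 97) in T cells. Of 17 compared ligand genes (66 in the table) 3 were higher in B and 6 in T cells, with Tnfsf8, the CD30 ligand, at 20.3 (18 to 29.7) in T cells against no more than 0.0903 in B cells. Ltb, a ligand needed to organise lymphoid tissue, was the most abundant of them and overlapped between the cell types, at 295 (230.0 to 323) in B and 303 (244 to 344) in T cells.

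Lineage factors were divided, but less evenly than the receptors. The lineage lists, like those of receptor signalling, hold identity genes by construction. Of 25 B lineage transcription factors (27 in the table) 21 were at least 2-fold higher in B cells and none in T cells. None was of equal level, out of 8 with a mean of 10 in both cell types. Spib was at 260.0 (221 to 271) in B cells against no more than 0.383 in T cells, while Foxp1, a member with the highest level, was expressed in both at 219 (196 to 225) in B and 116 (113 to 132) in T cells. Of 27 T lineage factors (30 in the table) 11 were higher in T cells, 3 in B cells and 2 of equal level. Tcf7 was at 0.473 (0.376 to 0.764) in B and 374 (342 to 388) in T cells. Lef1, its relative, was at 4.38 (4.26 to 4.92) in B and 269 (257 to 283) in T cells. Bcl6, the factor of germinal centre and follicular helper cells, was higher in B cells, at 29.1 (19.8 to 34.8) in B and 6.4 (5.69 to 6.99) in T cells. Ets1 was the most abundant of the list, at 398 (353 to 415) in B and 762 (700.3 to 818) in T cells, and Tcf12, an E protein, was of equal level at 53.4 (46.8 to 55.7) in B and 53.5 (51.8 to 61.8) in T cells.

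The NF-kB list (27 genes) leaned towards B cells, with 7 members against 2. Rel was at 37.8 (36.6 to 41.5) in B and 5.91 (5.56 to 8.04) in T cells, whereas Ikbke, a kinase related to the I kappa B kinases, was at 4.59 (3.28 to 5.59) in B and 100.3 (92 to 114) in T cells, the opposite direction by a log2 fold change of -4.19 ± 0.09. Of 18 JAK, STAT and SOCS genes (19 in the table) 1 was higher in B cells, Socs5 at 13 (11.7 to 14.1) in B and 4.57 (3.83 to 6.41) in T cells, and 5 were higher in T cells. Socs3, a brake on cytokine signals, was at 5.62 (3.57 to 8.02) in B and 39.5 (35.9 to 79.1) in T cells. Stat6, which transmits IL-4 signals, was of equal level, at 69.4 (62.1 to 81.7) in B and 73 (64 to 78.8) in T cells. Of 19 nuclear receptors (44 in the table) 5 were higher in T cells, led by Rarg, a retinoic acid receptor, at 8.91 (7.68 to 11.6) against 0.12 (0.0855 to 0.151).

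Lists of chromatin and zinc finger genes differed in how many members were of equal level. Of all compared genes with a mean of 10 in both cell types 25.1% were of equal level on the deposited scale. After rescaling to the same total or the same coding total no gene was. Of 30 genes of DNA methylation and retroelement silencing (32 in the table) 13 were of equal level, out of 22 with a mean of 10 in both cell types, 3 were at least 2-fold higher in B cells and 1 in T cells. Smchd1, which silences the inactive X chromosome and repeat clusters, was the most abundant of equal level, at 124 (117 to 131) in B and 116 (109 to 133) in T cells. Setdb1, which deposits the H3K9 methylation that silences endogenous retroviruses, was at 18.3 (17.4 to 20.3) in B and 20.4 (18.8 to 21) in T cells, and the DNA methyltransferase Dnmt3a at 15.3 (14.8 to 17.1) in B and 17.5 (16 to 18.7) in T cells. Both were chosen after their values were seen. The largest differences were Uhrf1, which copies methylation to new strands in dividing cells, at 9.26 (6.09 to 10.7) in B and 0.976 (0.754 to 1.47) in T cells, and Tet1, which oxidises methylated cytosine, at 1.24 (0.76 to 1.39) in B and 5.9 (5.27 to 6.86) in T cells. Of 43 Polycomb and trithorax genes (44 in the table) 9 were of equal level, out of 31 with such means, such as Bmi1 at 38.4 (34.6 to 44) in B and 38 (35.5 to 44.9) in T cells. This share is near that of all such genes. By 2-fold 1 was higher in B and 2 in T cells, or 5 and 0 once libraries were rescaled to the same total. The 302 compared zinc finger genes with a Zfp symbol (387 in the table) had 17 members higher in B cells and 15 in T cells on the deposited scale, 29 and 8 after rescaling to the same total, and 26 and 10 on the coding total. Of them 36 were of equal level, out of 114 with such means, and the median was 0.02 relative to all compared genes. Zfp608 was at 23.9 (21.7 to 25.3) in B and 0.462 (0.271 to 0.587) in T cells and Zfp658 at 0.795 (0.661 to 0.983) in B and 5.36 (4.02 to 5.82) in T cells. Zfp740, of equal level, was at 60.2 (57.5 to 62.1) in B and 58.6 (55.8 to 64.5) in T cells.

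Most mitosis and histone genes were higher in the B cells. Of 33 mitosis genes (36 in the table) 23 were at least 2-fold higher in B cells, with a median of 1.37 relative to all compared genes. Mki67, a marker of cycling cells, was at 11.3 (5.98 to 14.8) in B and 0.313 (0.21 to 0.993) in T cells. Of 70 histone genes (75 in the table) 40 were higher in B cells and 1 was in T cells. The linker histone Hist1h1b was at 40.8 (31.5 to 51.9) in B and 1.8 (1.37 to 2.81) in T cells and the replication-independent H3f3a, an H3 gene, at 945 (896 to 1089.9) in B and 405 (358 to 488) in T cells. Histone genes of one cluster are near-identical copies, and reads could be split between them. The member higher in T cells was H1f0, a linker histone of resting cells, at 1.43 (0.984 to 1.92) in B and 7.76 (6.5 to 11.6) in T cells. Replication genes were less one-sided: of 45, 7 were higher in B cells, among them Tk1, which makes thymidine monophosphate, at 16.1 (12.4 to 18) in B and 1.2 (0.993 to 2.09) in T cells, and 1, Pole2, in T cells at 3.09 (2.71 to 3.76) in B and 9.56 (8.03 to 11.6) in T cells. Their B cell count depended on the scale and was 18, 15 and 10 after rescaling to the same total, the coding total and median ratios. Smc4, a condensin subunit, was the mitosis gene that was higher in T cells, by a log2 fold change of -2.28 ± 0.06, at 67.7 (60.5 to 72) in B and 330.0 (294 to 362) in T cells. The summed share of the mitosis list in protein-coding signal, which includes it, was higher in T cells, at 0.0774% to 0.105% against 0.0568% to 0.0773% in B cells.

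Relative to all compared genes, those of translation leaned towards T cells, most of all those of the cytosolic ribosome. Of 83 cytosolic ribosomal protein genes (86 in the table) 80 were higher in T cells by p alone, 21 by at least 2-fold, against 41.7% and 9.15% of all compared genes, and none was higher in B cells by 2-fold or of equal level. Their median log2 fold change was -0.89, or -0.80 relative to all compared genes, and this relative value stayed between -0.86 and -0.76 under the alternatives that kept the low filter. The 2-fold count was 1, 5 and 10 after rescaling to the same total, the coding total and median ratios, and 37 without both T cell libraries numbered 6. Rps24 was at 1972 (1845 to 2649) in B and 4394 (3425 to 4628) in T cells and Rplp1 at 1089.7 (924 to 1363) in B and 3006 (2253 to 3521) in T cells, both without overlap. The least different was Rpl7l1, at 31.3 (27.3 to 34.6) in B and 27.1 (23.5 to 33.5) in T cells. The elongation factor Eef1a1 was at 5116 (4334 to 6099) in B and 9837 (8093 to 11220.5) in T cells, passing p alone except after rescaling to the same total, and Eef1b2 at 353 (293 to 401) in B and 791 (665 to 913) in T cells, passing 2-fold. Initiation and elongation factors made up 2.17% to 2.70% of protein-coding signal in B cells and 2.99% to 3.67% in T cells, without overlap. These sums include Eef1a1, the member with the highest level, and the list was not summed without it. Of 61 compared, 37 were higher in T cells by p alone, 10 were higher in B cells and 11 were of equal level, such as Eif4g2 at 292 (280.1 to 323) in B and 313 (288 to 345) in T cells. The kinase Eif2ak3, which slows initiation when proteins misfold, was higher in B cells at 40.1 (35.5 to 41.8) in B and 11 (10.2 to 12) in T cells. Of 38 tRNA synthetases 8 were of equal level and 1, Vars, was higher in B cells by 2-fold, at 149 (141 to 163) in B and 33.6 (31.2 to 38.3) in T cells. The mitochondrial synthetase Lars2 was listed between 3391 and 112633 adjusted TPM and did not separate the cell types (adjusted p = 0.2). The synthetase list, which includes it, made up 1.10% to 15.1% of protein-coding signal in B and 2.72% to 20.3% in T cells. Lars2 counts in that signal, so shares of protein-coding signal and the coding total depend in part on Lars2. The 77 mitochondrial ribosomal protein genes had 43 members higher in T cells by p alone, 2 of them by 2-fold, and 7 of equal level. The medians of the translation factors, mitochondrial ribosomal proteins and synthetases were each -0.14 relative to all compared genes, and none changed sign under these alternatives.

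Glycolysis genes differed in both directions, while nuclear genes of the respiratory chain leaned towards T cells relative to all genes, mostly by less than 2-fold. Of 26 glycolysis and glucose uptake genes (29 in the table) 3 were at least 2-fold higher in B cells and 8 in T cells on the deposited scale, 6 and 3 after rescaling to the same total, so no direction holds for the list. The lactate dehydrogenase subunits were both higher in T cells, Ldha at 92.3 (72.1 to 104) in B and 234 (201 to 253) in T cells and Ldhb at 14.8 (11.6 to 15.9) against at most 0.0393. Gapdh was of equal level, at 128 (117 to 166) in B and 132 (120.3 to 159) in T cells. Slc2a6, a lysosomal hexose transporter, was at 5.73 (5.1 to 6.85) in B and 0.302 (0.215 to 0.511) in T cells. Of 86 nuclear-encoded respiratory chain genes (94 in the table) 70 were higher in T cells by p alone and 3 in B cells, against 41.7% and 30.6% of all compared genes. By 2-fold 2 were higher in T cells and 1 in B cells. The median was -0.33 relative to all compared genes and stayed between -0.39 and -0.28 under the alternatives that kept the low filter. The 13 protein genes of the mitochondrial genome had no 2-fold call on the deposited scale (3 towards B cells after rescaling to the same total) and a median of 0.59 relative to all compared genes, with 9 of them higher in B cells by p alone. mt-Co1 overlapped, at 6725 (5611 to 8335) in B and 7083 (5754 to 7993) in T cells, and mt-Nd5 was at 175 (129 to 271) in B and 88.4 (69.6 to 115) in T cells. Of 168 solute carriers (379 in the table) 22 were higher in B and 20 in T cells by 2-fold on the deposited scale. These counts were 32 and 12 after rescaling to the same total, 27 and 15 on the coding total and 25 and 16 on median ratios. Slc9a7, a proton exchanger of the Golgi, was at 59.3 (56.8 to 62.8) in B and 1.5 (1.33 to 1.98) in T cells, and Slc16a5, of the monocarboxylate transporter family, at 31.6 (23.6 to 40.1) in T cells against no more than 0.000465 in B cells.

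Genes that respond to interferon did not move together. Of 57 compared members (70 in the table) 8 were called 2-fold higher in B cells, 17 in T cells, and 11 in each after rescaling to the same total. The guanylate-binding proteins went both ways, with Gbp3 at 30.1 (24.5 to 32.5) in B and 5.23 (4.41 to 7.2) in T cells and Gbp8 at 1.75 (1.54 to 3.1) in B and 36 (30.4 to 40) in T cells. Ddx58, which encodes the RNA sensor RIG-I, was of equal level, at 58.4 (55.3 to 64.3) in B and 64.1 (57.3 to 67.1) in T cells. Immediate early genes, which respond to handling of cells, had 4 members higher in B cells, led by Egr3 at 10.3 (7.13 to 12.6) in B and 1.35 (1.09 to 1.75) in T cells, and 2 in T cells, among them Fosl2 at 0.0941 (0.0801 to 0.12) in B and 2.02 (1.85 to 2.57) in T cells. Without both T cell libraries numbered 6 these counts turned round, to 2 and 5. Junb, the most abundant, overlapped at 103 (57.6 to 126) in B and 162 (97.7 to 269) in T cells. Of 20 quiescence regulators (21 in the table) 1 was higher in B and 2 in T cells, led by Slfn1 at 2.56 (0.52 to 3.45) in B and 139 (130.4 to 183) in T cells, or 5 and 1 after rescaling to the same total. Foxo1, which keeps lymphocytes at rest, was of equal level, at 35.6 (30.1 to 38.8) in B and 37.4 (33.7 to 39.5) in T cells. Among 19 compared BCL2 family genes (22 in the table) 6 were higher in B and 2 in T cells, with Pmaip1 at 9.33 (8.5 to 11.9) in B and 0.483 (0.329 to 1.07) in T cells, and Bax, an executor of cell death, of equal level at 26 (22.7 to 28.9) in B and 26.8 (21.7 to 28.1) in T cells.

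Lists of protein turnover, trafficking and splicing varied in their share of members of equal level, read here among genes with a mean of 10 in both cell types, where 25.1% of all were. Of 42 ubiquitin specific proteases (50 in the table) 15 were of equal level, out of 28 with such means, such as Usp7 at 112 (101 to 122) in B and 118 (113 to 129) in T cells. Of 29 ubiquitin conjugating enzymes (31 in the table) 10 were, out of 25. Of 56 sorting nexins and VPS proteins (60 in the table) 18 were, out of 39, such as Snx1 at 47.6 (43.7 to 50.2) in B and 50 (46.7 to 55.1) in T cells. This last list also held strong differences. Snx8 was at 43 (41.1 to 47.2) in B cells against no more than 0.442 in T cells, and Snx5 at 340.1 (288 to 369) in B and 114 (109 to 123) in T cells. Vps26b, a subunit of the retromer coat, was at 0.995 (0.817 to 1.26) in B and 20.4 (19.2 to 22.6) in T cells. Of 53 SR and hnRNP splicing genes (54 in the table) 15 were of equal level, out of 50, such as Hnrnpa2b1 at 211 (201 to 234) in B and 203 (183 to 211) in T cells. Hnrnpll, a splicing factor that acts on the CD45 transcript, was on in T cells at 21.4 (20.6 to 26.4) and at most 0.336 in B cells. The 47 proteasome genes (49 in the table) had 7 of equal level, out of 44 and so below the share of all, among them Psma1 at 61.8 (54.6 to 65.9) in B and 61.3 (51.3 to 69.3) in T cells, and 1 higher in T cells by 2-fold, Psmg1, a chaperone of proteasome assembly, at 5.96 (4.17 to 7.47) in B and 15.1 (12.6 to 16.7) in T cells. Of 30 autophagy genes (32 in the table) 7 were of equal level, out of 18, and Tfeb, the factor that drives lysosomal genes, was higher in B cells at 43.7 (41.6 to 45.2) in B and 7.02 (6.49 to 8.4) in T cells. Of 60 glycosyltransferases (98 in the table) 12 were higher in B cells, led by B3gnt5 at 136 (116 to 151) in B and 4.16 (3.66 to 5.24) in T cells, and 11 in T cells, led by St8sia1 at 21.6 (19.9 to 25.3) against at most 0.131, and 4 were of equal level, out of 28. Of 41 kinesins and unconventional myosins 11 and 6 were higher, and none was of equal level.

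On/off genes were defined as at least 10 adjusted TPM in each of the 6 libraries of one cell type and under 0.5 in each of the 6 of the other, with no test. By this rule 89 genes were on in B cells (0.727% of those compared) and 68 on in T cells (0.556%), of which 83 and 64 are protein-coding. Genes on in B cells had a median mean level of 43.1 and those on in T cells of 24.1. In the cell type where they were off, 29 of the 89 and 32 of the 68 stayed under 0.1 in every library, and the upper bounds deposited with the values were under 1 for all 157 genes. Just inside the limits were Scd1, whose highest T cell library was 0.487, Lrrk2 (0.492), Folr4, whose highest B cell library was 0.488, and Ggt5 (0.4996), and just outside were Alcam (0.505), Fcer2a (0.508), Atp10a (0.501) and Gm12840 (0.520). Female T cell library 6, with the highest B cell markers, held the limit for many: without it 110 genes were on in B cells, and without both libraries numbered 6 there were 119, with 71 on in T cells.

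Genes on in B cells included enzymes of metabolism beside receptors, kinases and transcription factors. Scd1, which makes monounsaturated fatty acids, was at 337 (299.5 to 365) in B cells. Lrrk2, a kinase known from Parkinson disease, was at 132 (126 to 134). Cd22 and Siglecg, sialic acid-binding inhibitors of B cell receptor signals, were at 355 (336 to 367) and 139.7 (115 to 153), with at most 0.448 and 0.349 in T cells. Fcrla, an intracellular protein that binds immunoglobulin, was at 225 (208 to 254). The kinase Blk was at 161 (146 to 172) and the transcription factor Mef2c at 163 (137 to 181). 3 enzymes of the kynurenine branch of tryptophan breakdown were on in B cells, a set noticed after values were seen. Kmo was at 83.4 (73.4 to 88.9), Haao at 33.9 (28.8 to 39.5) and Kynu at 28.3 (24.4 to 35.6), against at most 0.372, 0.229 and 0.053 in T cells.

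Genes on in T cells included, beside Cd3g at 483 (372 to 516), several that are not parts of the T cell receptor. Thy1, a surface glycoprotein, was at 230.1 (209 to 250.2) and at most 0.131 in B cells. Igfbp4, which binds insulin-like growth factors, was at 185 (165 to 223). Als2cl, a GTPase regulator, was at 167 (141 to 174), and Nsg2, known from neurons, at 154 (136 to 160.0). These were at most 0.0829, 0.117 and 0.383 in B cells. Cd6, a surface receptor, was at 111 (105 to 121), and Themis, which tunes T cell receptor signals, at 108 (98.4 to 118). The kinase Prkch was at 104 (102 to 105) against at most 0.44 in B cells. Themis had the lowest B cell values of the 10, at most 0.000389.

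**Figure D4:**
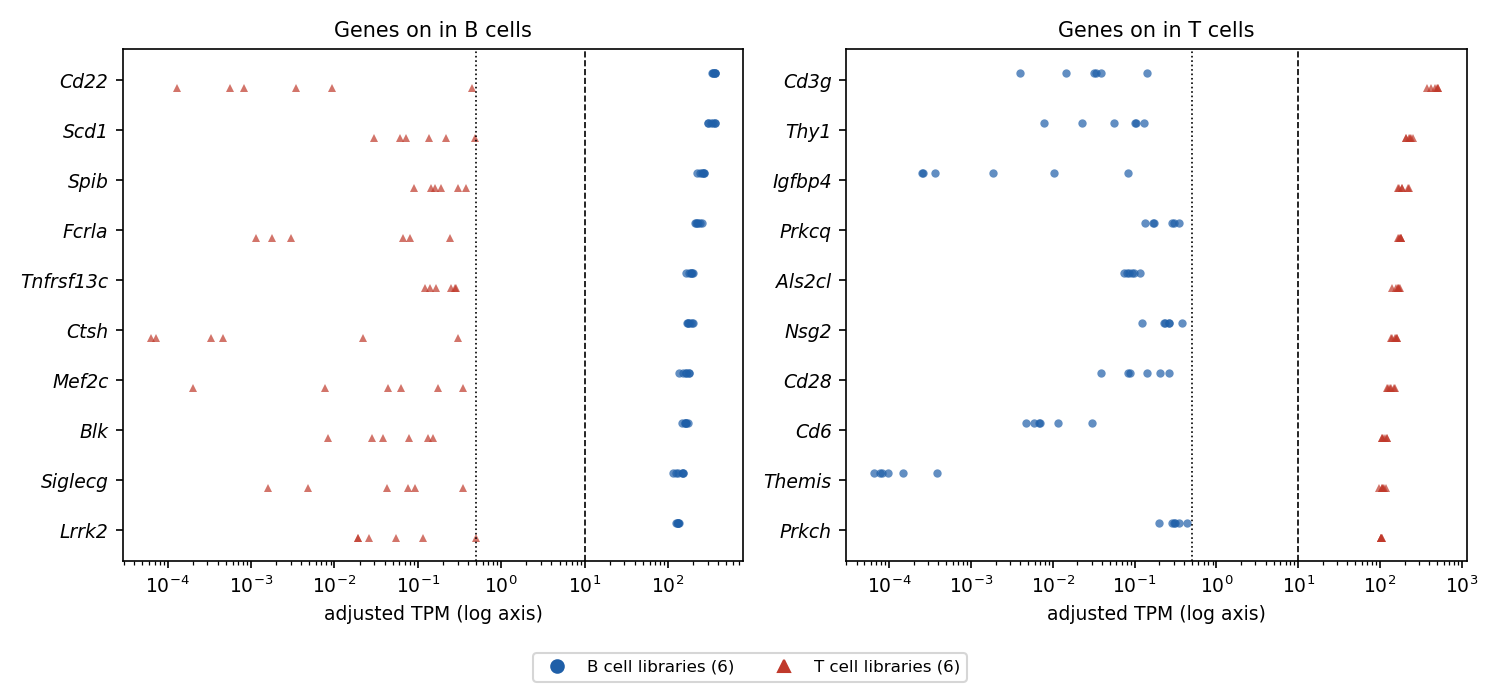
Adjusted TPM (log axis) in 6 B cell libraries (circles) and 6 T cell libraries (triangles) of the 10 most abundant genes on in B cells (left) and in T cells (right), lineage markers left out. The dotted and dashed lines mark 0.5 and 10, and the off values spread over several orders of magnitude below 0.5, where single values have little precision.

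Among genes whose log2 values averaged 5 or more over the 12 libraries, lineage markers left out, the 10 largest differences towards B cells were those of 6 class II genes and of Cd72, Snn, Ifi30 and Ralgps2. Genes near 0 in T cells with larger differences, such as Faim3, Syk and Unc93b1 above, lie below that mean. Cd72, an inhibitory receptor, was at 180.1 (159 to 194) in B and 7.02 (6.49 to 8.63) in T cells. Snn was at 177 (147 to 215) in B and 8.53 (8.06 to 9.94) in T cells, and Ralgps2, an exchange factor of the GTPase Ral, at 284 (265 to 318) in B and 25.8 (24.8 to 28) in T cells. Towards T cells they included Ms4a4b at 3.53 (2.74 to 4.82) in B and 689.7 (637 to 721) in T cells and Ms4a6b at 16.9 (13.3 to 18.1) in B and 582 (549.9 to 633) in T cells. Both are relatives of the B cell gene for CD20. Tmem66, a regulator of calcium entry, was at 10.6 (7.24 to 11.6) in B and 248 (228 to 287) in T cells, and Sepp1, a selenium carrier, at 21.9 (18.7 to 22.9) in B and 289.8 (217 to 344) in T cells. Rgs10, which shortens G protein signals, was at 9.41 (4.88 to 12.1) in B and 115 (108 to 128) in T cells. The sodium pump subunit Atp1b3 was at 35.1 (29.6 to 36.5) in B and 394 (337 to 410.0) in T cells and Fxyd5, a modulator of the same pump, at 23.5 (19.6 to 28.2) in B and 306 (243 to 337) in T cells. The 10 genes of each direction were taken only from 2-fold calls without overlap between B and T cell libraries. Their lack of overlap was therefore set by the choice. Ikzf2 was at least 2-fold higher in T cells (log2 fold change -2.10 ± 0.47, adjusted p = 0.0013) at 0.0172 (0.00509 to 0.0398) in B and 1.88 (1.07 to 13.4) in T cells, where the female and male libraries numbered 6 read 13.4 and 11.3 and the other 4 at most 2.07. Without these 2 libraries the log2 fold change of Ikzf2 was -1.29 (adjusted p = 2.7e-08).

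Promoter windows of 300 bases, from 250 before to 50 after a RefSeq start on GRCm38.p6, were matched by symbol to 8656 of the compared genes. This gave 93 windows for genes on in B cells, 53 for genes on in T cells, 1481 for genes of equal level and 10985 for all compared genes. A high ratio of observed to expected CpG marks a CpG island, the usual promoter of genes used in most tissues. The median ratio was 0.353 for genes on in B cells, 0.479 for genes on in T cells, 0.847 for genes of equal level and 0.767 for all compared genes. The share of windows above 0.6 was 28.0%, 41.5%, 84.3% and 70.8%. Of 13 motifs searched on both strands, the octamer ATGCAAAT, read by POU factors, was in 5.38% of on in B windows, and none of the on in T windows. It was in 0.743% of equal level windows, 1.27% of all compared windows and 1.74% of all 32851 promoter windows in the table. The ETS motif CCGGAAGT was in none of either on/off set, 14.8% of equal level windows and 8.96% of all compared windows. The NRF1 motif GCGCATGCG was in 5.47% of equal level and 3.92% of all compared windows, and the YY1 motif AAGATGGCG in 5.06% and 3.31%, and neither was in a window of the on/off sets. The SP1 motif GGGCGG was in 33.3% of on in B windows, 47.2% of on in T windows, 65.4% of equal level windows and 62.4% of all compared windows. The TATA box TATAAA was in 11.8%, 11.3%, 5.13% and 6.86%. The other motifs searched were GAGGAAGT, an ETS motif of the PU.1 type, CCCNNGGG, the core of the EBF site, ATCAAAG of TCF and LEF factors, AACCACA of RUNX factors, the GATA factor motif AGATAA, the E box CAGGTG and the inverted CCAAT box ATTGG. The PU.1 type motif was in 9.68% of on in B, 5.66% of on in T and 3.48% of all compared windows. The remaining 6 were in 3.23% to 29.0% of on in B windows, 3.77% to 33.96% of on in T windows and 2.46% to 38.1% of all compared windows. The ETS, NRF1, YY1 and SP1 motifs contain a CpG, so their shares are not independent of the CpG ratio, and a match is a description of letters, not a bound site.

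The 5 genes on in B cells whose window held the octamer are shown as the 140 bases before the start, with the octamer in capitals on whichever strand it lies. The coordinates are chr19:40994222-40994361 (minus strand) for Blnk, chr17:8235903-8236042 (plus) for Ccr6, chr12:34528890-34529029 (minus) for Hdac9, a histone deacetylase, chr9:106222458-106222597 (plus) for Tlr9 and chr10:75948160-75948299 (plus) for Vpreb3, an endoplasmic reticulum protein of B cells. Counted back from the start, the octamer begins 130, 68, 49, 72 and 45 bases away. Each is printed 5' to 3' in the direction of transcription.
Blnk: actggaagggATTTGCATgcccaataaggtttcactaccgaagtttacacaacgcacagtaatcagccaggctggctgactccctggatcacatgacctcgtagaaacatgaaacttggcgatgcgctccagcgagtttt
Ccr6: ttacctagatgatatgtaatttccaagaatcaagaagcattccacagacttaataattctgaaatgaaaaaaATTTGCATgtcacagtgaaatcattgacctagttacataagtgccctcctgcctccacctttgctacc
Hdac9: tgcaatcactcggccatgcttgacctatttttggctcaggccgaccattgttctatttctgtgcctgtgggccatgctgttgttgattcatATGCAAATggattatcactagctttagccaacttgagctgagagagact
Tlr9: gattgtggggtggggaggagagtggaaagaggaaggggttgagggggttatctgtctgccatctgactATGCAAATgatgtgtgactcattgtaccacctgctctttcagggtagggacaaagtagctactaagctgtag
Vpreb3: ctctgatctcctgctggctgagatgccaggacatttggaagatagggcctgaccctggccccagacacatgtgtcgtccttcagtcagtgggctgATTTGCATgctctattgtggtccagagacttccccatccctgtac
Vpreb3 was at 72.9 (69.5 to 89) in B cells against no more than 0.131 in T cells, and Hdac9 at 19.8 (16.7 to 21.4) and at most 0.372. The octamer reads ATGCAAAT in Hdac9 and Tlr9 and as its reverse complement in the other 3.

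The difference in CpG content is shown with the 250 bases before the start of 2 abundant genes of each kind, with every CpG in capitals. They lie at chr7:30879029-30879278 (minus) for Cd22, chr7:44532072-44532321 (minus) for Spib, chr9:44980432-44980681 (minus) for Cd3g, chr11:99040994-99041243 (plus) for Igfbp4, chr1:86526307-86526556 (plus) for Ptma and chr1:125435728-125435977 (minus) for Actr3. Cd22 and Spib, on in B cells, have 4 and 2 CpG.
Cd22: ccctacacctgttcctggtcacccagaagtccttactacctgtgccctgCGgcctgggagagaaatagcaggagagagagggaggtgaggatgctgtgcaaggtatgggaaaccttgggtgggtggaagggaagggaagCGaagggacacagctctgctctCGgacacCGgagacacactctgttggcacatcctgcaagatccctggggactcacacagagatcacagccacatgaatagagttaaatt
Spib: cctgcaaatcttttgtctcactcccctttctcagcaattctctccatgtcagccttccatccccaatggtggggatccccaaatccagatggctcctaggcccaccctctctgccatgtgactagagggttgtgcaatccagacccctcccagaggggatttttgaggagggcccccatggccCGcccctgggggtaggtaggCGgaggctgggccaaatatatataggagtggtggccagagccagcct
Cd3g and Igfbp4, on in T cells, have 4 and 22, so a gene on in one cell type can also have a CpG-rich promoter.
Cd3g: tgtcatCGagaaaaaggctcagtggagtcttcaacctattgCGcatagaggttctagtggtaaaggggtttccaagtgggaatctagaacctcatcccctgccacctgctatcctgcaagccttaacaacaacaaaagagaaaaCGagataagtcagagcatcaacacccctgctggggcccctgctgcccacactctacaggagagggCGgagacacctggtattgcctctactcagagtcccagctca
Igfbp4: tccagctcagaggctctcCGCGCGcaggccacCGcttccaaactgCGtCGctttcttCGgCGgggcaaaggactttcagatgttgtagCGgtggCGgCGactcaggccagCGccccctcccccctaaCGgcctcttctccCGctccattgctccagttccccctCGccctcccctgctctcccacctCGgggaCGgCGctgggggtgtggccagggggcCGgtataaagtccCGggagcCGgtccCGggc
Ptma and Actr3, of equal level, have 23 and 27.
Ptma: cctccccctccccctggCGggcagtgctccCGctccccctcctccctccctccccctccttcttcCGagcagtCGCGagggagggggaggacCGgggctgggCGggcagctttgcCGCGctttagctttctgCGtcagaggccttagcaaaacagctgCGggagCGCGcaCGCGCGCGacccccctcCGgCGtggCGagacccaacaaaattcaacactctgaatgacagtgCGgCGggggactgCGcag
Actr3: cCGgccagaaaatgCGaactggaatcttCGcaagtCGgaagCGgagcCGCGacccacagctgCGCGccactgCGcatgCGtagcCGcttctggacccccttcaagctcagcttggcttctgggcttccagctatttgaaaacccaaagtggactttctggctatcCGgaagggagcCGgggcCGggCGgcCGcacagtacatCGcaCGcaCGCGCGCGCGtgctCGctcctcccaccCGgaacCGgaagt

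Equal level was tested and not inferred from a missed threshold. A gene was called of equal level when 2 one-sided tests placed its difference within a log2 value of 0.32 either way, with an adjusted p under 0.05 and a mean of at least 10 adjusted TPM in both cell types. This gave 1428 genes, 11.7% of those compared and 25.1% of the 5683 with such means, of which 1414 are protein-coding. Their largest absolute log2 fold change was 0.19 and their median level 22.99 adjusted TPM. For 174 of them the difference itself also had an adjusted p under 0.05, a small difference inside the margin. The call rests on the deposited scale, as median-ratio scaling gave 1676 such genes, of which 976 were shared. Rescaling to the same total or to the same coding total gave none by the adjusted limma test, with 41 and 1778 at an unadjusted p under 0.05 against 2072 on the deposited scale. Without both T cell libraries numbered 6 there were 1110, of which 1023 were shared. The share of genes of equal level fell with abundance, from 23.4% of genes whose higher mean lay between 10 and 30 to 18.6% between 30 and 100, 8.42% between 100 and 300 and 2.03% from 300 upwards.

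The 10 most abundant protein-coding genes of equal level had varied roles, and H2-T23 and Eif4g2, described above, were among them. Ptma, which encodes the acidic nuclear protein prothymosin alpha, was at 1006 (996 to 1111) in B and 1058 (899 to 1133) in T cells, with a log2 fold change of -0.02 ± 0.09. Actr3, a core subunit of the complex that branches actin, was at 518 (459 to 565) in B and 521 (455 to 559) in T cells, and Arpc5, a further subunit of it, at 214 (191 to 237) in B and 228 (202 to 234) in T cells. The actin genes around them were not all so even. Actb itself overlapped without an equal call, at 4162 (3698 to 4692) in B and 5211 (4200.3 to 6191) in T cells. Tmsb10, which binds actin monomers, was higher in T cells at 500.3 (443 to 579) in B and 1269.5 (975 to 1455) in T cells, and Coro2a was higher in B cells at 25.9 (24.4 to 32.3) in B and 0.829 (0.383 to 3.57) in T cells. Msn, which links actin to the membrane, was of equal level at 221 (190.4 to 241) in B and 203 (186 to 219.8) in T cells. The chaperone Hsp90ab1 was at 348 (302 to 507) in B and 377 (344 to 384) in T cells and the ferritin light chain Ftl1 at 293 (276 to 349) in B and 314 (266 to 367) in T cells. The phosphatase Ptp4a2 was at 229 (206 to 276) in B and 228 (210.1 to 249) in T cells and the adaptor Ywhaz, of the 14-3-3 family, at 219 (201 to 251) in B and 204 (197 to 217) in T cells.

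**Figure D5:**
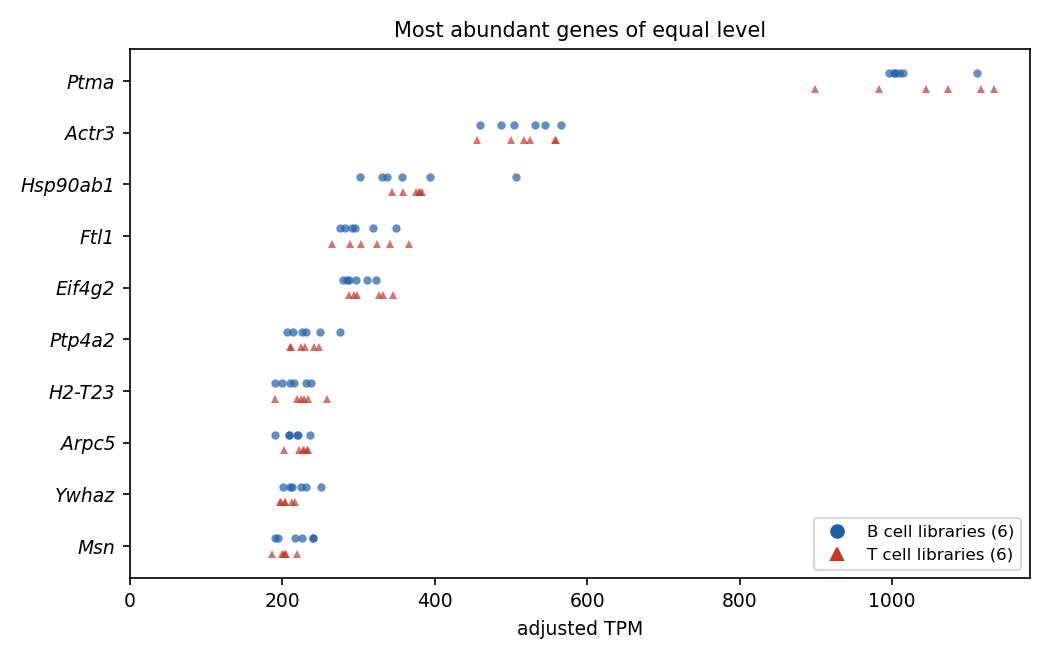
Adjusted TPM (linear axis from 0) in 6 B cell libraries (circles) and 6 T cell libraries (triangles) of the 10 protein-coding genes of equal level with the highest mean. The 2 sets of points overlap for each gene, between 899 and 1133 for Ptma and between 455 and 565 for Actr3.

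Genes with a 2-fold difference in the same direction lay next to each other along chromosomes in some places. Of 10378 adjacent pairs of compared protein-coding genes, 408 (3.93%) were both higher in the same cell type by 2-fold and 162 (1.56%) differed in opposite directions. Of all compared protein-coding genes 11.2% were at least 2-fold higher in B cells and 8.94% in T cells. Whether the pairs exceed what these shares alone would give was not tested. There were 16 runs of 4 or more such neighbours. Chromosome 13 holds 4 runs of histone genes, of 6 genes (21753435 to 21789213), 8 genes (21831767 to 22043676), 5 genes (23570517 to 23577011) and 5 genes (23744973 to 23757409). A run of 7 genes on chromosome 17 (34238903 to 34460734) holds H2-Ob, H2-Ab1, H2-Aa, H2-Eb1 and H2-Eb2, with Btnl2 and BC051142 at its end. On chromosome 9 (44969572 to 45077436) Cd3g, Cd3d and Cd3e were followed by Mpzl3, all higher in T cells. The share of genes at least 2-fold higher in B cells was 17.6% on chromosome 13 and 16.7% on chromosome 1, against 10.7% of all. These positions are on GRCm38.

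Noncoding genes followed the protein-coding genes in part. Of 753 compared long noncoding RNAs 80 were at least 2-fold higher in B cells (10.6%), 86 in T cells (11.4%), and 3 were on in each. These shares are near those of all compared genes, 10.7% and 9.15%. Of 784 pseudogenes 46 were higher in B (5.87%) and 90 in T cells (11.5%). Reads of a pseudogene and of its parent gene can be hard to tell apart, and ribosomal protein genes have many pseudogenes. Of 148 small nuclear and nucleolar RNAs 1 was higher in B cells (0.676%) and 8 in T cells (5.41%). Equal level was called for 5, 7 and 1 of these 3 kinds. Only 56, 73 and 85 of them had the mean of 10 in both cell types that the call needs. Of all compared genes with such means 25.1% were of equal level.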

How the data were processed

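RNA was spiked with synthetic ERCC transcripts, freed of ribosomal RNA and made into stranded total RNA libraries, and per the labels the reads were trimmed with Trim Galore, checked with FastQC and aligned to mm10 with STAR. The authors deposited an adjusted TPM, a signal rescaled between libraries, with a lower and an upper bound for each gene and library. The quantification tool and the method of adjustment are not given in the sources used here. The signal is not a read count, so sequencing depth is unknown and no count test was run. Some labels call the material genomic DNA, and the values were treated as RNA.

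Values were analysed as log2(adjusted TPM + 1) in limma (3.58.1, under R 4.3.3). The model held 1 coefficient for each group and a mean-variance trend, and the contrast was B minus T averaged over the sexes. P-values were adjusted by Benjamini-Hochberg over all 12520 genes past the low filter (at least 1 in at least 3 libraries), antigen receptor genes included. All adjusted p come from this fit. A 2-fold call needed an adjusted p under 0.05 and an absolute log2 fold change of at least 1. Gene lists were described by counts and medians, with no set test. Genes were named as the largest, the most abundant and the most equal of each list and call, by a rule. Gene lists, that rule and the choice of comparison were made with earlier results of these data known, and a few genes named outside the rule are said to be so or were named for the rule's limits, promoters or neighbours. Gene types and positions come from the GENCODE M21 annotation of GRCm38, which matched 40254 of 41128 identifiers (97.9%), and promoters from RefSeq on GRCm38.p6. A few genes and gene lists that the rule would name are not reported here. Fits were tested on simulated data. Other steps used Python 3.11.15 with numpy 2.4.6 and pandas 2.3.3, and plots matplotlib 3.10.9. Replicates are pools of mice, and p-values measure the spread between these libraries.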

Additional observations from a re-analysis of the deposited data

Results flagged for a closer look

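Among 318 sets of 6 libraries (a named gene in one cell type), 11 had 1 library far from the other 5. In these the gap to its neighbour lay above Dixon's 95% critical value, which chance exceeds in about 5% of sets. The 11 flags are fewer than that rate would give, so they do not by themselves mark a library as unusual. In female T cell library 6, B2m was low at 2013, Bax low at 21.7 and Fosl2 high at 2.57. Male T cell library 6 was high for Irf7, at 66.2, and for Slfn1, at 183. These are the 2 libraries with raised regulatory T cell markers. In male B cell library 1, Ptma was high at 1111, H3f3a at 1090 and Rps24 at 2649, and the Rps24 value narrowed the distance to T cells. Female B cell library 3 was low for Foxp1, at 196, and for Tcf12, at 46.8, and male B cell library 3 was low for Slfn1, at 0.520. None of these values brought the B and T cell ranges of B2m, Irf7, Slfn1, H3f3a, Foxp1, Fosl2 or Rps24 to overlap. Whether anything beyond chance set these values apart was not tested.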

How the results depend on the processing

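The counts of 2-fold calls, 1303 and 1119, stayed within 1.5 times under a pseudocount of 0.1, other low filters, no variance trend, either sex alone, limma's test against a fold of 2 (1014 and 783) and each library left out in turn (1292 to 1319 in B and 1094 to 1179 in T cells). Rescaling every library to the same total lowered the T cell count to 740, the genes past p alone in T cells to 1877 and those on in T cells to 42. Rescaling to the same protein-coding total left 2851 genes past p alone in T cells. By the adjusted limma test 0 genes were of equal level under either of these, 0 with the female libraries alone (1612 at an unadjusted p under 0.05) and 0 with the male libraries alone (1459), where these fits have 6 libraries in place of 12. Without the low filter 11980 and 12164 genes passed p alone, a cause that was not tested. A minimum fold of 4 left 536 and 353 genes, a margin of 1.5-fold for equal level gave 3681, on/off limits of 5 against 0.5 gave 138 and 112, and limits of 10 against 0.1 gave 29 and 32. Leaving out each library in turn gave 1062 to 1311 genes of equal level, 3575 to 3776 and 4850 to 5166 past p alone, and 89 to 110 and 68 to 71 on/off genes.

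The library numbers 1 to 3 name B cells and 4 to 6 T cells, so B and T cells share no number and cannot be paired. Females and males of the same number deviated together in T cells (correlations of 0.72, 0.55 and 0.52 across genes) and not in B cells (-0.17, -0.04 and -0.34). With the number as a random block the 2-fold counts were 1303 and 1118, genes past p alone 3636 and 4957, and genes of equal level 1174. Leaving out both T cell libraries numbered 6, chosen after seeing the data, gave 3804 and 5143 genes past p alone.

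For single genes named here, 1 direction was labelled as reversed, that of Dnmt3a. Its log2 fold change, called of equal level on the deposited scale, was 0.20 after rescaling to the same total and 0.10 after rescaling to the same coding total. The median of all compared genes moved from -0.09 on the deposited scale to 0.25 and 0.16 on these scales. The sign of other named genes with a log2 fold change near 0, such as Ptma and Actr3, therefore also depends on the scale. The median of 9 lists relative to all genes changed sign with some setting, among them those of chemokine receptors, G protein regulators, immediate early genes, quiescence regulators, glycolysis, splicing proteins, Rab GTPases and autophagy. Values below the limit of 0.5 have little precision, since depth is unknown.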
